A study of Mus musculus with 111 samples.

Results

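Bleomycin, a chemotherapy agent that breaks DNA, injures the lung when it is given into the airway and is followed by inflammation and then by repair with scarring, so that lungs taken a few days apart can be at different stages. Here the response of a gene is its mean level in bleomycin mice minus its mean level in saline mice killed on the same day, and the quantity described is the response at day 7 minus the response at day 2. It was taken over all probesets that name a single gene, 27871 of the 32688 in the table, which gave 15707 genes with the most variable probeset kept for each. It rests on 32 mice, 8 in each of the groups called F (bleomycin, day 7), E (saline, day 7), D (bleomycin, day 2) and C (saline, day 2), the other 10 of the 14 groups of the series serving only to estimate the spread.

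All mice were male C57BL6/J, 7 to 9 weeks old on arrival, and received 1 intratracheal spray of 50 µl holding bleomycin at 2 U/kg or saline alone. Whole lungs were homogenized without lavage, 1 mouse to an array, and values are log2 hybridization levels, so that a difference of 1 is a 2-fold difference. In such homogenates fewer cells of a type and less RNA per cell cannot be told apart. Levels on an array cannot be compared between genes, and the number of mice limits the precision. Genes that mark alveolar epithelium were present, with a mean level of 11.24 to 11.80 over 11 type II cell genes and of 11.63 to 12.19 over 12 type I cell genes in the 32 mice.

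Some mice stood apart from their groups. Over the 149 genes that passed the test as higher in bleomycin lungs at day 2, bleomycin mice 5 and 8 of that day lay a median of 0.12 and 0.20 above the saline mean, while the other 6 mice lay 1.31 to 2.25 above it. Mice 5 and 8 were within the range of the saline mice for 98 and 91 of these genes, against 0 to 11 for the other 6. Serum amyloid A3 (Saa3), an acute-phase protein made in injured lung, was at 9.20 and 9.56 in mice 5 and 8 and at 13.09 to 14.12 in the other 6. At day 7 bleomycin mouse 1 had the weakest response, a median of 1.00 over 448 genes against 1.30 to 1.70 in the other 7 mice. Saline mouse 3 of day 7 carried 11.59 of the basal cell keratin Krt15, against at most 7.80 in the other saline mice of that day, and high levels of Trp63, also of basal cells, and of Ucp1, a gene of brown fat. Counts below are given for all 32 mice and, where it changes a call, without bleomycin mice 5 and 8 of day 2, a setting chosen after seeing the data.

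At the 2-fold limit, more genes had a larger than a smaller response at day 7. Larger and smaller refer throughout to the signed response, not to its size. A gene that lay further below saline at day 7 than at day 2 thus counts as smaller. A gene was called where its adjusted p was under 0.05 and its difference of responses was at least 2-fold. By this rule 197 genes (1.25% of those tested) had a larger response at day 7 and 61 (0.388%) a smaller one, and the adjusted p alone was passed by 1827 (11.6%) and 1118 (7.12%). At day 7 itself 448 genes (2.85%) passed the same rule as higher after bleomycin and 75 (0.477%) as lower, and at day 2 149 (0.949%) were higher and 27 (0.172%) lower. By adjusted p alone 4038 genes (25.7%) were higher and 3434 (21.9%) lower at day 7, against 2233 (14.2%) and 2059 (13.1%) at day 2. The excess by adjusted p alone depended on normalization. With array medians subtracted, 1359 genes had a larger and 1549 a smaller response, and 3231 were higher and 4684 lower at day 7. The calls were then 170 larger and 74 smaller. Without bleomycin mice 5 and 8 of day 2, 148 genes (0.942%) had a larger and 85 (0.541%) a smaller response at day 7, and 142 of the 197 and 51 of the 61 were among them. All 197 and all 61 kept the sign of their difference in that setting. The called genes nearest to the 2-fold limit had differences of 1.001 and -1.002, and the nearest genes outside it 0.993 and -0.997.

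Of the 197 genes with the larger response, 126 were higher in bleomycin lungs at day 7 and did not pass the test at day 2, and 62 were higher at both days. Another 6 were lower at day 2 and higher at day 7, and 3 were lower at day 2 alone. Their bleomycin mice of the 2 days did not overlap for 140 genes. Of the 61 with the smaller response, 22 were lower at day 7 alone, 17 higher at day 2 alone, 13 higher at both days, 7 higher at day 2 and lower at day 7, 1 lower at both days and 1 passed at neither. The bleomycin mice of the 2 days did not overlap for 8 of these. The larger responses thus mostly passed the test at day 7 alone, while the smaller ones were a mixture of early rises that shrank and late falls. Not passing at day 2 does not show that a response was absent there. Without bleomycin mice 5 and 8 of day 2, 242 genes rather than 149 were called higher at that day.

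The saline mice changed little between the days. The difference between saline groups passed both limits for 1 gene (0.00637%) and the adjusted p alone for 730 (4.65%), 4 of them among the 197 and 0 among the 61. Over the 197 genes the median change from day 2 to day 7 was 1.31 between bleomycin groups and -0.01 between saline groups, and over the 61 it was -1.09 between bleomycin groups and 0.23 between saline groups. The genes called larger had 149 further probesets in all, and those called smaller had 25. The difference had the same sign in 142 and 25 of these probesets and was called in 55 and 12.

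**Figure D1:**
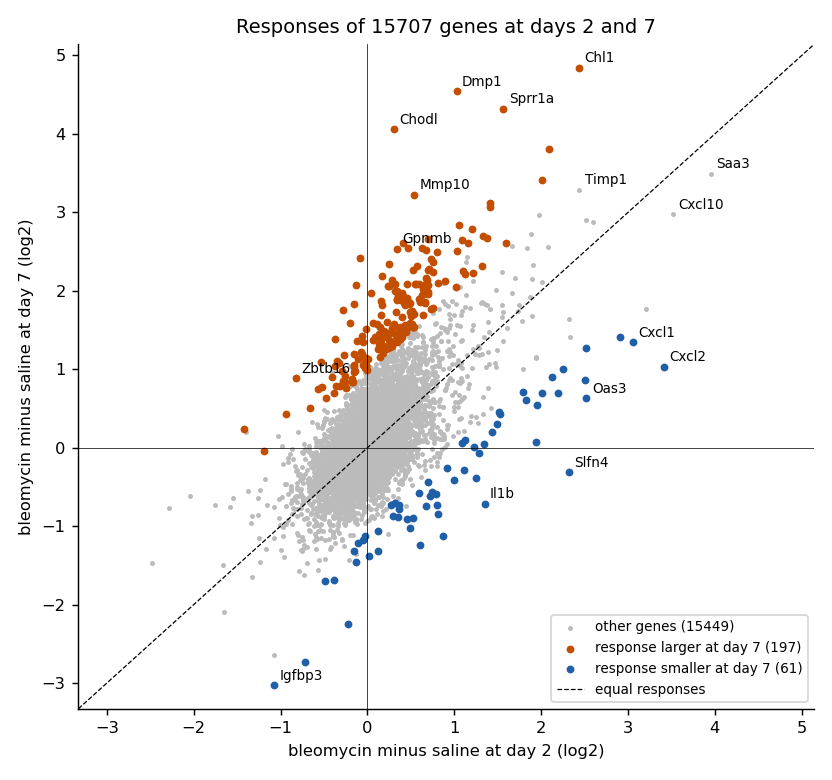
Response of each of 15707 genes at day 7 (vertical axis) against its response at day 2 (horizontal axis), both as bleomycin minus saline on the log2 scale, with the 197 genes called larger and the 61 called smaller at day 7 coloured. Most of the larger responses rise near zero on the day 2 axis, and Chodl lies highest above the diagonal with a difference of 3.76.

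The chemokines that draw neutrophils had smaller responses at day 7. Cxcl1, Cxcl2, Cxcl3, Cxcl5 and Ppbp encode secreted ligands of Cxcr2, the receptor by which neutrophils leave the blood for injured tissue. All 6 genes of this list were measured, 5 were called smaller at day 7 and 0 larger, and their median difference was -1.61 against 0.01 over all genes. Their median change from day 2 to day 7 was -1.26 between bleomycin groups and 0.52 between saline groups. With all mice only Cxcl5 did not pass the test (-0.78 ± 0.48, adjusted p = 0.271), and without bleomycin mice 5 and 8 of day 2 it was called too (-1.31, adjusted p = 0.0435). The genes of these ligands lie in a cluster on chromosome 5. Of the 4 ligands with a RefSeq promoter entry (GRCm38.p6, 250 bases before to 50 after the start), 3 hold a form of the NF-kappaB site (GGG, any 2 bases, TTTCC) on either strand, and 1.62% of all 27025 promoters do. The 120 bases before the start are shown to let the 3 be compared, for Cxcl1 (chr5:90891125-90891244, plus strand), Cxcl2 (chr5:90903779-90903898, plus strand) and Cxcl3 (chr5:90785981-90786100, plus strand), with each match in capitals whichever strand it reads on. A match is a string of letters and says nothing of binding.
Cxcl1: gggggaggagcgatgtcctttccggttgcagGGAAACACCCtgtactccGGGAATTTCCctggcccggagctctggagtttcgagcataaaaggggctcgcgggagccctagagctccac
Cxcl2: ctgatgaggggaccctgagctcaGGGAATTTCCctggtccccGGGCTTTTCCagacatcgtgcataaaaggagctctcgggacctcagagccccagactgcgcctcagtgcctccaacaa
Cxcl3: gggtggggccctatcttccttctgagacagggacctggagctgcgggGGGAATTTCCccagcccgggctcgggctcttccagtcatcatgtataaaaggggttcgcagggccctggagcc

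In mouse lungs Cxcl2 lay at 7.35, 8.02 and 8.29 (lowest, median and highest of 8) in bleomycin mice of day 7, against 6.34, 6.74 and 8.62 in saline mice of day 7, 8.37, 9.56 and 10.59 in bleomycin mice of day 2 and 5.35, 5.77 and 8.06 in saline mice of day 2. At day 2 every bleomycin mouse lay above every saline mouse, while at day 7 the groups overlapped through 1 high saline mouse. Its response was 1.03 at day 7 and 3.41 at day 2, a difference of -2.38 ± 0.63 (SE, adjusted p = 0.00346). Cxcl1, its close relative, lay at 7.28, 8.19 and 8.55 in bleomycin and 5.93, 6.96 and 7.57 in saline mice at day 7, and at 6.98, 10.02 and 10.93 in bleomycin and 5.39, 6.22 and 7.15 in saline mice at day 2. The response of Cxcl1 was thus still present at day 7 (adjusted p = 0.00832) and smaller than at day 2 by 1.72 ± 0.63, an adjusted p of 0.0415 that passed 0.05 narrowly. It was over 0.05 when any 1 of 16 mice was left out, with differences of -1.69 to -1.49 and an adjusted p of up to 0.0869, and the call was also lost with the probeset of highest mean (-1.48). Cxcl3 had a difference of -1.501 ± 0.50 (adjusted p = 0.0247), with no overlap of bleomycin and saline mice at day 7 and an overlap of 1 mouse of each kind at day 2.

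Ppbp and Cxcr2 differed from the other members in where they stood at day 2. Ppbp, the platelet basic protein, lay at 9.11, 9.36 and 10.36 in bleomycin and 10.63, 10.85 and 11.13 in saline mice at day 7, and at 9.97, 10.81 and 11.26 in bleomycin and 10.66, 10.71 and 10.95 in saline mice at day 2. It was lower in bleomycin lungs at day 7 only, with no mouse of the bleomycin group reaching the saline range, and its difference was -1.397 ± 0.28 (adjusted p = 0.000132). The receptor Cxcr2 had medians of 7.95 in bleomycin and 8.99 in saline mice at day 7 and 9.31 in bleomycin and 8.56 in saline mice at day 2, a difference of -1.99 ± 0.58 (adjusted p = 0.00871).

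Genes expressed by neutrophils themselves followed in part. Ltf, Camp and Ngp lay the other way, at 1.24, 0.53 and 0.12, without passing the adjusted p. The median change of the 12 neutrophil genes measured was -0.22 between bleomycin groups and 0.32 between saline groups. Of these 12 genes, 4 were called smaller and 0 larger, with a median difference of -0.45. The 4 were Cxcr2, Mmp9, the gelatinase stored in neutrophil granules (-1.51 ± 0.46, adjusted p = 0.0117), and S100a8 and S100a9, the paired calcium-binding proteins of neutrophil cytosol. S100a8 lay at 10.89, 11.31 and 12.15 in bleomycin and 11.23, 12.23 and 13.61 in saline mice at day 7, and at 11.23, 12.26 and 13.62 in bleomycin and 11.13, 11.86 and 12.70 in saline mice at day 2, so that all groups overlapped. Its difference was -1.37 ± 0.44 (adjusted p = 0.0184), and -0.96 and not called between the bleomycin groups alone. The call was also lost without bleomycin mice 5 and 8 of day 2 (-1.23, adjusted p = 0.0586). S100a9 (-1.17 ± 0.38, adjusted p = 0.0209) lost its call in that setting as well, at -1.03 (adjusted p = 0.0678), which left 2 of the 12 called. The mean level of the 12 genes ranged over 8.81 to 9.997 in bleomycin and 8.51 to 10.45 in saline mice at day 7, and over 8.86 to 10.88 in bleomycin and 8.64 to 9.61 in saline mice at day 2. Its part in the chemokine result was not tested.

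The most negative differences included single genes of other kinds. Slfn4, a Schlafen gene of monocytes and neutrophils, had the most negative difference of all genes, -2.63 ± 0.60 (adjusted p = 0.000717). It lay at 9.34, 10.10 and 12.15 in bleomycin and 9.58, 10.66 and 12.27 in saline mice at day 7, and at 11.73, 12.37 and 13.35 in bleomycin and 9.07, 10.19 and 10.87 in saline mice at day 2. At day 2 every bleomycin mouse was above every saline mouse, and at day 7 the groups overlapped throughout. The cytokine Il1b, which starts much of acute inflammation, lay at 9.62, 10.06 and 10.74 in bleomycin and 9.92, 10.60 and 12.38 in saline mice at day 7, and at 9.98, 11.41 and 12.62 in bleomycin and 8.99, 10.06 and 10.84 in saline mice at day 2. It was the 1 called gene of 10 measured in the interleukin-1 family, with a difference of -2.06 ± 0.52 (adjusted p = 0.00233), and it passed the test at day 2 (adjusted p = 0.00319) but not at day 7 (adjusted p = 0.106). Between the bleomycin groups alone, day 7 minus day 2, the difference of Il1b was -1.25. Another 3 of the 12 most negative differences, those of Ly6i, Ifitm6 and H2-Q10 (-1.86, -1.65 and -1.84), belonged to a Ly6 surface protein, a protein of the interferon-induced transmembrane family and a class I MHC molecule.

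Interferon-stimulated genes, which are switched on in cells that receive interferon, rose at day 2 and were raised less at day 7. Of 17 measured, 9 were called smaller and 0 larger, and 16 were smaller by adjusted p alone. At day 2 all 17 were higher in bleomycin lungs by adjusted p and 12 passed the 2-fold limit too, against 9 and 3 at day 7. The median difference was -1.08 with all mice and -1.52 without bleomycin mice 5 and 8 of day 2, where 15 were called. Oas3, an enzyme that makes the activator of RNase L, lay at 7.46, 8.60 and 9.91 in bleomycin and 7.28, 8.03 and 8.57 in saline mice at day 7, and at 8.82, 10.53 and 11.12 in bleomycin and 7.19, 7.76 and 7.93 in saline mice at day 2. Every bleomycin mouse of day 2 was above every saline mouse of that day, the groups of day 7 overlapped, and the difference was -1.89 ± 0.43 (adjusted p = 0.000619). Mx2, a dynamin-like antiviral GTPase, had a difference of -1.41 ± 0.30 (adjusted p = 0.000262), which was -2.01 without the 2 mice. Rsad2, the antiviral enzyme viperin, kept a response of 1.27 at day 7 (adjusted p = 0.000248), smaller than at day 2 by 1.25 ± 0.43 (adjusted p = 0.0288). The call of Rsad2 was lost when any 1 of 5 mice was left out, with an adjusted p of up to 0.0584, and with the probeset of highest mean (-0.88), while its difference was -1.89 without bleomycin mice 5 and 8 of day 2.

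The core of the interferon-stimulated response element (GAAA, any 2 bases, GAAA) was searched for on either strand. It was found in the promoters of 8 of the 13 members with a RefSeq entry, against 3.49% of all promoters. Of the 7 called members with an entry, 3 held it, so the motif did not set the called members apart. Oas3 (chr5:120777660-120777779, minus strand) and Rsad2 (chr12:26456453-26456572, minus strand) are shown as members with different responses at day 7, both with 1 match in the 120 bases before the start.
Oas3: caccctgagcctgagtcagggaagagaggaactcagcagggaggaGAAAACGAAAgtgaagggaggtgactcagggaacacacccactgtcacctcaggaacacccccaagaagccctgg
Rsad2: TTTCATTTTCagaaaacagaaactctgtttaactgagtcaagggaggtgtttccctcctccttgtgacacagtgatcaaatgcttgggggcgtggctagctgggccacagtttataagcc

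Ligands of Cxcr3, the receptor of activated T cells, are also induced by interferon. Cxcl11 was called smaller (-1.32 ± 0.33, adjusted p = 0.00181) with its most variable probeset, but not with the probeset of highest mean (-0.23) or the mean of its probesets (-0.77), nor with the 4 groups alone. Without bleomycin mice 5 and 8 of day 2 its difference was -1.98. Cxcl10 and Cxcl9 were higher in bleomycin lungs at both days. Cxcl10 lay at 10.61, 11.18 and 12.26 in bleomycin and 7.65, 8.25 and 8.63 in saline mice at day 7, and at 8.23, 12.72 and 13.62 in bleomycin and 7.65, 8.31 and 8.71 in saline mice at day 2. The low end of the bleomycin range at day 2 was set by mice 5 and 8, at 8.23 and 8.30, and the other 6 lay at 12.18 or higher. Its difference was -0.53 ± 0.58 (adjusted p = 0.582) with all mice, and -1.69 (adjusted p = 0.00368), a call, without these 2.

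Genes of natural killer and other cytotoxic cells had smaller signed responses too, with a median response of 0.21 at day 2 and -0.53 at day 7. By adjusted p 3 of them were higher in bleomycin lungs at day 2 and 7 were lower at day 7. Of 10 measured, 3 were called smaller, 7 were smaller by adjusted p and 0 larger, with a median of -0.72. Granzyme B (Gzmb), a protease that kills target cells, lay at 7.52, 7.92 and 8.32 in bleomycin and 7.99, 8.53 and 9.09 in saline mice at day 7, and at 8.64, 9.17 and 9.50 in bleomycin and 8.04, 8.36 and 9.07 in saline mice at day 2. The bleomycin mice were thus lower at day 7 (adjusted p = 0.000621) and higher at day 2 (adjusted p = 0.000181), a difference of -1.33 ± 0.22 (adjusted p = 5.04e-06). The killer cell receptors Klre1 and Ncr1 had differences of -1.10 and -1.002, and both calls were lost without bleomycin mice 5 and 8 of day 2, at -0.99 and -0.85.

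Outside these groups, 3 of the most negative differences belonged to genes that were lower in bleomycin lungs at day 7. Igfbp3, which binds insulin-like growth factors in tissue and plasma, lay at 7.70, 8.59 and 10.21 in bleomycin and 11.42, 11.64 and 11.81 in saline mice at day 7, and at 9.74, 10.14 and 11.28 in bleomycin and 11.10, 11.48 and 11.74 in saline mice at day 2. It was the 1 gene of the 61 lower at both days, with a response of -3.03 at day 7 and -1.08 at day 2 and a difference of -1.95 ± 0.30 (adjusted p = 9.62e-07). Cyp1a1, a cytochrome P450 induced through the aryl hydrocarbon receptor, lay at 6.65, 7.04 and 9.18 in bleomycin and 9.49, 10.09 and 11.38 in saline mice at day 7, and at 8.10, 8.67 and 9.95 in bleomycin and 8.91, 9.66 and 10.35 in saline mice at day 2. Its difference was -2.01 ± 0.55 (adjusted p = 0.00532), and 0 of the other 4 targets of that receptor were called. Alas2, the first enzyme of heme synthesis in red cell precursors, had a difference of -2.02 ± 0.71 (adjusted p = 0.0331), lost as a call without bleomycin mice 5 and 8 of day 2 (-1.59) or without any 1 of 5 mice.

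**Figure D2:**
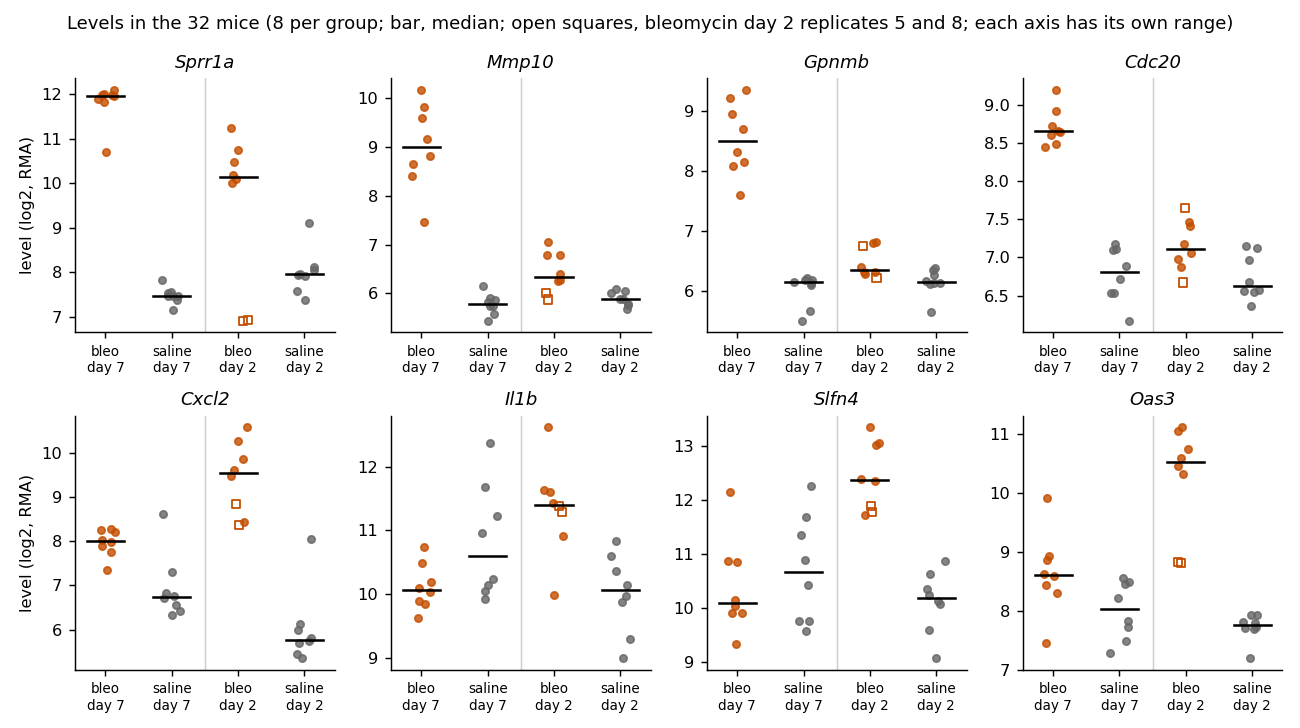
Log2 level of selected genes in each mouse, in bleomycin and saline mice of day 7 and of day 2 (8 mice a group, bars at the median, open squares for bleomycin mice 5 and 8 of day 2, each panel with its own vertical range). Mmp10 lies between 7.46 and 10.17 in bleomycin mice of day 7 and between 5.88 and 7.05 in those of day 2, while Oas3 is highest in bleomycin mice of day 2.

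Among the larger responses the genes of cell division gave the most calls of any list described. The mitosis list holds the cyclins, kinases, kinesins and kinetochore proteins that condense, attach and part the chromosomes. Of 37 measured, 29 were called larger, 36 were larger by adjusted p and 0 smaller, with a median difference of 1.24 and a range of 0.63 to 1.83. Without bleomycin mice 5 and 8 of day 2 the count called was 25. At day 7 all 37 were higher in bleomycin lungs by adjusted p and 34 passed the 2-fold limit, against 12 and 0 at day 2. The mean level of the list lay between 8.83 and 9.31 in bleomycin and 7.34 and 7.66 in saline mice at day 7, and between 7.31 and 8.10 in bleomycin and 7.19 and 7.61 in saline mice at day 2. No bleomycin mouse of day 7 therefore reached down to any mouse of the other groups.

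With the most variable probeset the largest of these differences was that of Kif2c, a kinesin that takes microtubules apart at the kinetochore. Kif2c lay at 8.58, 8.89 and 9.20 in bleomycin and 6.48, 6.75 and 7.20 in saline mice at day 7, and at 6.67, 7.18 and 7.75 in bleomycin and 6.33, 6.99 and 7.26 in saline mice at day 2, a difference of 1.83 ± 0.30 (adjusted p = 3.07e-06), which was 0.82 and not called with the mean of its probesets. Aspm, a protein of the spindle poles, had a difference of 1.66 ± 0.33 (adjusted p = 0.000102) with the same lack of overlap at day 7. For Hmmr, a hyaluronan receptor that also binds the spindle, levels in bleomycin mice of day 7 fell within a narrow band of 9.37, 9.58 and 9.76, against 6.88, 7.23 and 7.46 in saline mice of that day. It was higher at both days by adjusted p, and its difference was 1.61 ± 0.40 (adjusted p = 0.0019), or 0.83 and not called with the mean of its probesets.

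Genes that are switched on late in the cell cycle often carry the motifs CCAAT, bound by NF-Y, and TTTGAA, a form of the cell cycle homology region. In the RefSeq promoters CCAAT was found on either strand in 23 of the 29 mitosis genes with an entry, against 37.9% of all promoters, and TTTGAA in 24 of 29, against 18.1%. Ccnb2 (chr9:70421555-70421674, minus strand), Cdc20 (chr4:118437344-118437463, minus strand) and Cdk1 (chr10:69352913-69353032, minus strand) are shown because they encode a mitotic cyclin, the activator of the complex that destroys it and the kinase it binds, and because their 120 bases before the start carry 3 or 4 matches each. ATTGG in capitals is CCAAT read on the other strand.
Ccnb2: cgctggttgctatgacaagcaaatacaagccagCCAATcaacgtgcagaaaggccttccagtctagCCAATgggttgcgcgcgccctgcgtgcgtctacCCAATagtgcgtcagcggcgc
Cdc20: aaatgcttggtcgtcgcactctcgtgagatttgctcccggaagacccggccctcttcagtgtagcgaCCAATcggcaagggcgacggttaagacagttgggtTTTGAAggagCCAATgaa
Cdk1: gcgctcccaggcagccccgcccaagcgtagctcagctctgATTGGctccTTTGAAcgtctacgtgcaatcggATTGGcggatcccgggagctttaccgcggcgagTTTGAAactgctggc
The responses of these 3 genes were alike. Ccnb2 had a difference of 1.45 ± 0.26 (adjusted p = 1.8e-05), Cdc20 of 1.52 ± 0.33 (adjusted p = 0.000276) and Cdk1 of 1.39 ± 0.31 (adjusted p = 0.000477). They were named after their values were seen.

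DNA replication genes, which act earlier in the cycle, gave smaller differences. Of 31 measured, 2 were called larger, 22 were larger by adjusted p and 0 smaller, with a median of 0.44. The 2 called were Clspn, a checkpoint protein at the replication fork (1.54 ± 0.29, adjusted p = 4.59e-05), and Tk1, the thymidine kinase of S phase (1.14 ± 0.23, adjusted p = 0.000133). At day 2 already 22 of the 31 were higher in bleomycin lungs by adjusted p, against 12 of the 37 mitosis genes.

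Matrix genes split between those already up at day 2 and those up at day 7 alone. Of 11 fibrillar collagens, 3 were called larger and 0 smaller, with a median of 0.42. Col24a1, a minor fibrillar collagen, lay at 6.48, 7.15 and 7.37 in bleomycin and 4.42, 4.71 and 5.06 in saline mice at day 7, and at 4.69, 5.07 and 5.36 in bleomycin and 4.48, 4.70 and 5.63 in saline mice at day 2. Its bleomycin mice of day 7 stood above all others, with a difference of 2.10 ± 0.35 (adjusted p = 5.53e-06). Col5a3 and Col5a2, chains of the type V collagen that nucleates fibrils, had differences of 1.36 and 1.09, and neither was called with the mean of its probesets (0.60 and 0.93), nor Col5a2 with the probeset of highest mean (0.77). The chains of the most abundant collagens were not called, Col1a1 at 0.42 ± 0.17 (adjusted p = 0.0769) and Col3a1 at 0.37 ± 0.25 (adjusted p = 0.343). Of these Col1a1 had a response of 0.79 at day 7 and 0.37 at day 2 and passed the test at both days.

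Among 22 matricellular proteins and proteoglycans 4 were called larger and 0 smaller, with a median of 0.41. Thbs4, a thrombospondin of tendon and remodelling tissue, lay at 7.97, 8.95 and 9.24 in bleomycin and 5.89, 6.23 and 8.37 in saline mice at day 7, and at 6.004, 6.16 and 7.29 in bleomycin and 6.04, 6.22 and 7.46 in saline mice at day 2. The high saline value of day 7 was that of mouse 3, and the difference was 2.4997 ± 0.39 (adjusted p = 1.35e-06). Cilp, a cartilage protein that is also made in scarred heart, had a difference of 1.79 ± 0.34 (adjusted p = 5.4e-05). Fmod, the collagen-binding proteoglycan fibromodulin, was called larger without bleomycin mice 5 and 8 of day 2 and not with all mice. Thbs2 and Cthrc1, a marker of collagen-making fibroblasts, had differences of 1.48 and 1.11, and Cthrc1 was lower than saline at day 2 and higher at day 7. Elastin (Eln) was the 1 called gene of 13 in the elastic fibre list (1.71 ± 0.29, adjusted p = 5.23e-06). P4ha3, a prolyl hydroxylase, was the 1 called of 14 collagen-modifying enzymes and chaperones, at 1.05, and lost its call without bleomycin mice 5 and 8 of day 2 (0.92).

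Of 20 metalloproteases 4 were called larger and 1, Mmp9, smaller, with a median of 0.28. The stromelysin Mmp10 lay at 7.46, 8.99 and 10.17 in bleomycin and 5.44, 5.78 and 6.14 in saline mice at day 7, and at 5.88, 6.34 and 7.05 in bleomycin and 5.68, 5.89 and 6.10 in saline mice at day 2. Its response was 3.23 at day 7, where all bleomycin mice were above all saline mice, and 0.54 at day 2 (adjusted p = 0.233), a difference of 2.69 ± 0.46 (adjusted p = 9.26e-06). Adamts12, which cuts cartilage proteins, the macrophage elastase Mmp12 and Adam12, a marker of activated stromal cells, followed with 1.98, 1.71 and 1.48. The inhibitor Timp1 behaved otherwise, with a response of 3.29 at day 7 and 2.44 at day 2 and a difference of 0.85 ± 0.50 (adjusted p = 0.251) that was 0.02 without bleomycin mice 5 and 8 of day 2.

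Genes of macrophages that take up lipid and debris grew in response. Of 12 measured, 2 were called larger and 9 were larger by adjusted p, against 1 smaller, with a median of 0.65. Gpnmb, a glycoprotein of lysosome-rich macrophages, lay at 7.60, 8.51 and 9.36 in bleomycin and 5.50, 6.14 and 6.22 in saline mice at day 7, and at 6.21, 6.35 and 6.81 in bleomycin and 5.64, 6.15 and 6.38 in saline mice at day 2, a difference of 2.20 ± 0.32 (adjusted p = 2.59e-07). Trem2, the lipid-sensing receptor of such cells, lay at 9.26, 10.21 and 11.003 in bleomycin and 7.38, 7.66 and 7.76 in saline mice at day 7, and at 7.73, 8.21 and 8.80 in bleomycin and 7.56, 7.64 and 7.74 in saline mice at day 2. In both genes all bleomycin mice of day 7 exceeded every mouse of the other groups, and the difference of Trem2 was 1.92 ± 0.33 (adjusted p = 8.54e-06), or 0.93 and not called with the mean of its probesets. The mean level of the 12 genes was 11.23 to 11.76 in bleomycin and 10.52 to 10.95 in saline mice at day 7, and 10.55 to 11.08 in bleomycin and 10.67 to 10.97 in saline mice at day 2.

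Of 11 genes of osteoclasts and fused macrophages 3 were called larger, with a median of 0.80. These were Dcstamp, needed for macrophages to fuse (1.56 ± 0.34, adjusted p = 0.0004), Ctsk, the collagen-cutting cathepsin K (1.04), and Calcr, the calcitonin receptor (1.01). The call of Ctsk was lost without bleomycin mice 5 and 8 of day 2, at 0.87. Complement genes gave 4 calls of 10, all larger, the C1q chains C1qa, C1qb and C1qc (1.27, 1.24 and 1.17) and the receptor C3ar1 (1.37). All 4 were higher in bleomycin lungs at both days, and none of the 4 was called without bleomycin mice 5 and 8 of day 2, where C1qa, for one, was at 0.98. C1qa lay at 11.51, 12.19 and 12.82 in bleomycin and 10.02, 10.20 and 10.61 in saline mice at day 7, and at 10.11, 11.13 and 11.69 in bleomycin and 10.17, 10.34 and 10.72 in saline mice at day 2. Ccl8, an attractant of monocytes, was in the same position, 1.30 with all mice and 0.69 without the 2.

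Some genes used as markers of transitional alveolar epithelium, a state between type II and type I cells, had larger responses, though airway cells and macrophages also express several of them. Of 12 measured, 3 were called larger and 0 smaller and 9 were larger by adjusted p, with a median of 0.41. Sprr1a, a protein of the cornified envelope of squamous cells, lay at 10.71, 11.96 and 12.09 in bleomycin and 7.15, 7.47 and 7.82 in saline mice at day 7, and at 6.91, 10.15 and 11.24 in bleomycin and 7.39, 7.96 and 9.11 in saline mice at day 2. It was higher at both days, with a difference of 2.75 ± 0.51 (adjusted p = 2.85e-05), which was 1.87 without bleomycin mice 5 and 8 of day 2. Cldn4, a tight junction protein, had a difference of 2.20 ± 0.32 (adjusted p = 3.48e-07) and passed the test at day 7 only. The integrin chain Itgb6, which activates TGF-beta at the epithelial surface, had medians of 9.31 in bleomycin and 8.17 in saline mice at day 7, and of 8.13 in bleomycin and 8.06 in saline mice at day 2. Every bleomycin mouse of day 7 was above every other mouse, and the difference was 1.22 ± 0.24 (adjusted p = 6.48e-05). The type II and type I cell lists gave 0 calls of 11 and of 12, with medians of -0.11 and 0.10.

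**Figure D3:**
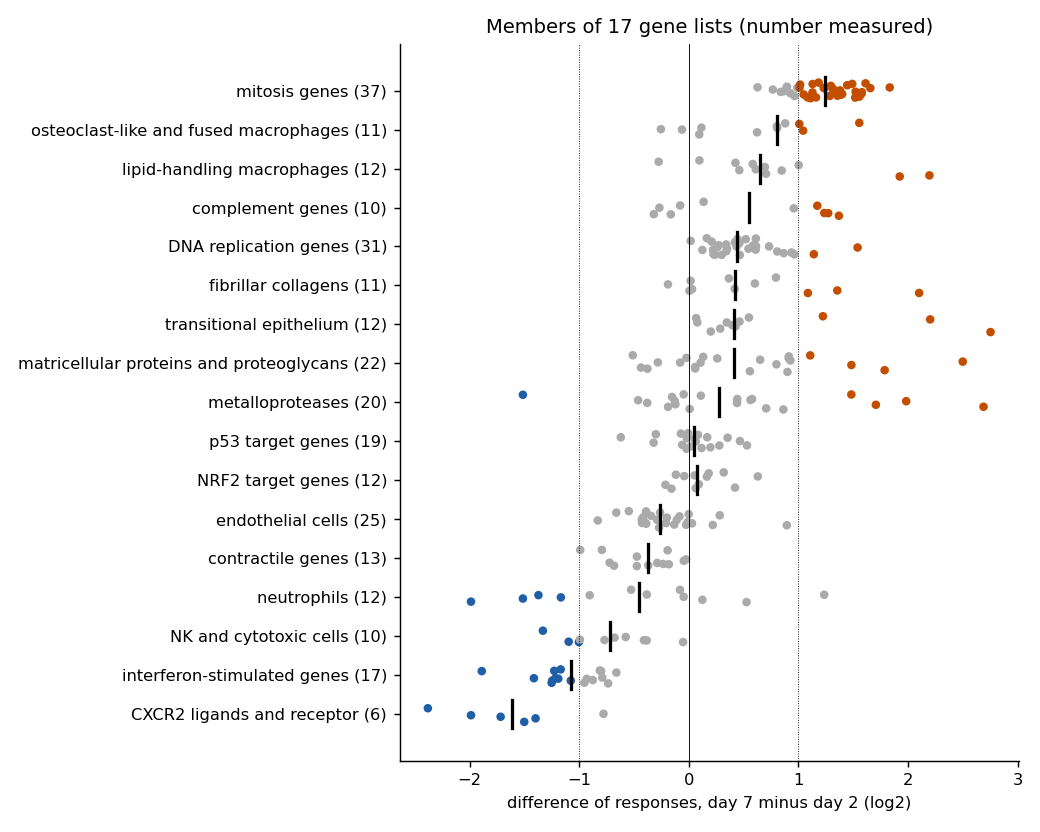
Difference of responses (day 7 minus day 2, log2) for every measured gene of selected lists, 1 list to a line. Called genes are coloured, a bar marks each list's median and dotted lines mark the 2-fold limit. The mitosis genes lie between 0.63 and 1.83 and the interferon-stimulated genes between -1.89 and -0.66, so neither list crosses zero.

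Signalling genes gave single calls rather than whole lists. Of 19 TGF-beta and activin genes 2 were called larger, Itgb6 and Fst, the secreted activin trap follistatin. Fst lay at 10.14, 11.63 and 11.87 in bleomycin and 8.08, 8.73 and 9.89 in saline mice at day 7, and at 8.88, 9.68 and 10.55 in bleomycin and 8.48, 9.11 and 9.26 in saline mice at day 2, a difference of 1.97 ± 0.39 (adjusted p = 9.12e-05). Its bleomycin mice of day 7 were above the saline mice of that day, while the groups of day 2 overlapped. Of 19 Wnt ligands and inhibitors 3 were called larger, the secreted inhibitors Sfrp1 (1.79 ± 0.32, adjusted p = 2.14e-05) and Frzb (1.33) and the ligand Wnt5a (1.11). The difference of Wnt5a was 0.22 with the probeset of highest mean and 0.51 with the mean of its probesets, neither of them a call, and that of Sfrp1 was 1.14 with the probeset of highest mean. Of 10 EGF receptor ligands and receptors only the ligand Ereg was called, at 1.72 ± 0.61 (adjusted p = 0.0372), and its call was lost without bleomycin mice 5 and 8 of day 2 (1.08) or without any 1 of 9 mice. Pdgfc, a PDGF of epithelium, was the 1 called of 16 PDGF and FGF genes (1.03), and Serpinb2, an inhibitor of plasminogen activators, the 1 called of 11 coagulation and plasminogen genes (1.44).

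The largest differences of all belonged to genes outside these lists or alone in theirs. Chodl, the membrane lectin chondrolectin, lay at 7.67, 9.36 and 10.45 in bleomycin and 4.73, 4.97 and 7.43 in saline mice at day 7, and at 4.50, 5.35 and 6.17 in bleomycin and 4.76, 4.94 and 5.68 in saline mice at day 2. All bleomycin mice of day 7 were above all others, and the difference was 3.76 ± 0.54 (adjusted p = 1.83e-07). Dmp1, an acidic protein of bone and dentin matrix, lay at 8.40, 8.94 and 10.12 in bleomycin and 3.95, 4.49 and 5.08 in saline mice at day 7, and at 4.27, 5.94 and 6.73 in bleomycin and 4.22, 4.46 and 6.65 in saline mice at day 2. It had a difference of 3.52 ± 0.73 (adjusted p = 0.000181) and was the 1 called of 7 mineralized matrix genes, at 2.30 with the mean of its probesets, while Alpl, the phosphatase of bone, was called smaller without bleomycin mice 5 and 8 of day 2 (-1.19, adjusted p = 3.2e-06). Pkhd1, which encodes the ciliary protein fibrocystin, was between 5.50 and 6.81 in bleomycin mice of day 7 and at 4.93 or lower in all other mice, a difference of 2.20 ± 0.28 (adjusted p = 8.98e-09). The adaptor protein Shc4 had a difference of 2.09 ± 0.33 (adjusted p = 1.33e-06), and the transcription factor Tfap2a, known from skin and neural crest, one of 2.04 ± 0.46 (adjusted p = 0.000641). The cell adhesion protein Chl1 was at 2.41 ± 0.74 (adjusted p = 0.0136) and lost its call without bleomycin mice 5 and 8 of day 2 (1.49).

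In 13 genes the response turned round, in that bleomycin and saline differed in opposite directions at the 2 days, each by adjusted p. The 6 that were lower at day 2 and higher at day 7 were Cthrc1, Dab1, Ivl, Nnat, Rgn and Spink4, with differences of 1.08 to 1.32. The 7 that were higher at day 2 and lower at day 7 were Gzmb, Klre1, Ifitm6, Trem3, Hspb1, Il1f9 and AW011738, with differences of -1.65 to -1.10. Among these Ivl, involucrin of the squamous cell envelope, and Hspb1, a small heat shock chaperone, had differences of 1.30 and -1.32. None of the 13 passed the 2-fold limit at both days, and they were named after their values were seen.

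10 genes were over 4-fold higher in bleomycin lungs at both days, and 3 of them (Psrc1, Ereg and Chl1) were called larger at day 7. Psrc1, a p53-responsive microtubule protein, had a difference of 1.397 ± 0.44 (adjusted p = 0.0152), and 0.69 without bleomycin mice 5 and 8 of day 2. Among those with the smallest change was Vcan, the large proteoglycan versican, at 8.71, 9.49 and 9.84 in bleomycin and 6.90, 7.32 and 7.90 in saline mice at day 7, and at 8.37, 9.33 and 9.995 in bleomycin and 6.84, 7.20 and 7.65 in saline mice at day 2. Its difference was 0.11 ± 0.30, with a 95% confidence interval of -0.49 to 0.71. The chemokine Ccl12 was at 0.28 ± 0.54 and Ddias, a survival protein induced by DNA damage, at 0.49 ± 0.38. Saa3 had a response of 3.49 at day 7 and 3.95 at day 2, with a difference of -0.46 ± 0.73 (adjusted p = 0.725) and an interval of -1.89 to 0.98. A difference that misses the threshold does not show that the responses of the 2 days were equal.

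In 5 called genes the saline groups differed between days by more than the bleomycin groups. Zbtb16, a transcription factor induced by glucocorticoids, lay at 9.14, 10.33 and 11.14 in bleomycin and 8.32, 9.16 and 10.99 in saline mice at day 7, and at 8.68, 9.85 and 12.06 in bleomycin and 9.20, 11.12 and 11.85 in saline mice at day 2. Its difference of 1.70 ± 0.47 (adjusted p = 0.00579) thus held a change of -1.49 in saline mice, against 0.21 in bleomycin mice. Fkbp5, a chaperone also induced by glucocorticoids, had a difference of 1.06 ± 0.29 with a change of -0.64 in saline mice. The others were Cxcl3, the immediate early gene Nr4a1 and the phosphatase subunit Ppp2r2c, with differences of -1.501, -1.45 and -1.10. The calls of Nr4a1 and Ppp2r2c were lost without bleomycin mice 5 and 8 of day 2, at -1.400 and -0.99.

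Other pathways known in bleomycin lung gave few calls or none. Of 19 p53 target genes none was called and 1 passed the adjusted p, with a median of 0.05, while 15 were higher in bleomycin lungs at day 7 and 14 at day 2 by adjusted p. The NRF2 targets, which answer oxidative stress, gave 0 calls of 12 and a median of 0.08, and the interleukin-6 family 0 of 10 and -0.03, although Il6 itself was called smaller without bleomycin mice 5 and 8 of day 2 (-2.56, adjusted p = 0.0187). Genes of the unfolded protein response gave 0 calls of 14, with 5 smaller by adjusted p. Endothelial genes gave 0 calls of 25 as well, 9 being smaller and 1 larger by adjusted p, with a median of -0.26. Without the same 2 mice 6 were smaller by adjusted p, and Sele, the endothelial selectin that slows leukocytes, was called at -1.08 (adjusted p = 0.00861). The receptors Kdr and Tie1 and the junction protein Cldn5 were among the 9 with all mice, with differences of -0.43, -0.39 and -0.29.

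The same question was put to the mice of day 14 and day 1, whose levels did not enter the difference between days 7 and 2. The spread behind the adjusted p was estimated over all groups and is shared by both contrasts. The response at day 14 minus the response at day 1 passed both limits for 320 genes (2.04%) as larger and 76 (0.484%) as smaller at day 14, and the adjusted p alone for 2185 (13.9%) and 1621 (10.3%). Of the 197 genes with the larger response at day 7, 194 had a positive difference between days 14 and 1, 175 passed the adjusted p and 157 were called, which is 79.7% of the 197 and 49.1% of the 320. Of the 61 with the smaller response, 60 had a negative difference, 36 passed and 22 were called, which is 36.1% of the 61 and 28.9% of the 76. Over all genes 50.6% of the differences were positive. The median was 1.57 over the 197 and -0.88 over the 61.

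All 37 mitosis genes were called larger between days 14 and 1, with a median of 1.97. All 6 genes of Cxcr2 and its ligands were called smaller, with a median of -2.07. The mean level of these 6 was 6.54 in saline mice of day 1 and 8.19 in those of day 14. In bleomycin mice it was 8.26 and 7.77, so the saline mice changed by more than the bleomycin mice. The interferon-stimulated genes gave 0 calls, with a median of -0.44. Chodl had 3.64, Cilp 3.01 and Thbs4 3.63 between days 14 and 1, and Cxcl2 had -3.78. Of the genes named for a smaller response, Il1b at -0.88 (adjusted p = 0.232) and Oas3 at -0.48 (adjusted p = 0.465) did not pass.

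**Figure D4:**
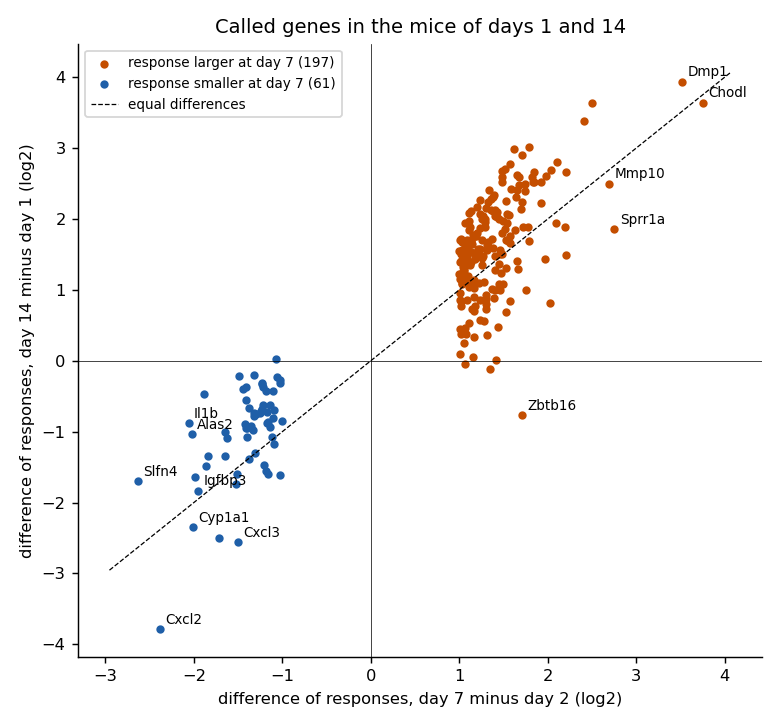
Difference of responses between day 14 and day 1 (vertical axis, log2) against that between day 7 and day 2 (horizontal axis, log2) for each called gene, the 2 differences resting on separate mice. Of the 197 genes called larger at day 7, 194 lie above zero on the vertical axis, and of the 61 called smaller 60 lie below it.

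The course over all 7 days placed these changes in time. Over the 197 genes the median response was -0.10 at day 1, 0.34 at day 2, 1.59 at day 7, 1.56 at day 14, 0.88 at day 21, 0.50 at day 28 and 0.46 at day 35. Over the 61 it was 0.32 at day 1, 0.81 at day 2, -0.58 at day 7, -0.70 at day 14, -0.38 at day 21, -0.24 at day 28 and -0.00 at day 35. Days 2 and 7 of both series chose the genes and are given as a description. Mitosis genes stood at a median of -0.37 at day 1, 0.35 at day 2, 1.53 at day 7, 1.46 at day 14, 0.77 at day 21, 0.28 at day 28 and 0.15 at day 35. Interferon-stimulated genes had their highest median at day 2, 1.49, with 0.66 at day 1, 0.41 at day 7 and 0.26 at day 14. The lipid-handling macrophage genes stood at 0.05 at day 2 and 0.67 at day 7 and were still at 0.51 at day 35, whereas the fibrillar collagens, at 0.24 at day 2 and 0.96 at day 7, had their highest median at day 14, 1.11.

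**Figure D5:**
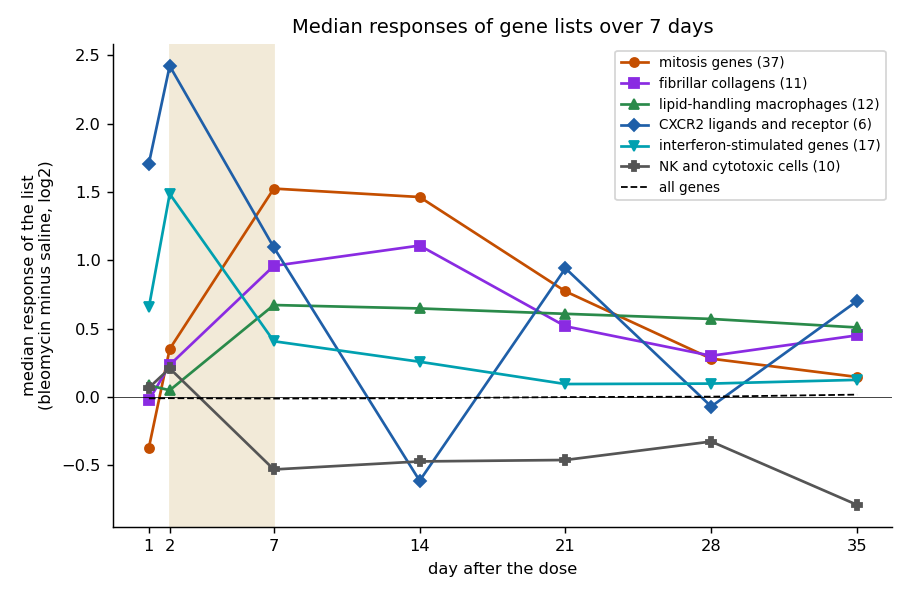
Median response (bleomycin minus saline, log2) of selected lists at each of the 7 days, 1 line a list. The line of the mitosis genes lies below zero at day 1 (-0.37) and highest at day 7 (1.53), and that of the interferon-stimulated genes highest at day 2 (1.49).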

How the data were processed

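The arrays are Affymetrix Mouse 430 2.0, hybridized with lung RNA amplified by NuGen Ovation kits. Per the labels, the authors summarised the probes by RMA (background correction, quantile normalization and median polish) and deposited log2 values, with no sequencing depth behind them. 1 saline mouse of day 14 was left out by the authors. The genome build is not given in the sources used here. Probesets with several genes (314) or none (4503) were left out, and gene names came from the platform annotation. 1 linear model over all 14 groups was fitted in limma 3.58.1 (R 4.3.3) with moderated variances, and p-values were adjusted over 15707 genes (Benjamini-Hochberg). SE are those of the model and intervals are at 95%. A gene was called at an adjusted p under 0.05 and a 2-fold difference. The procedure was tested on simulated data. Genes named were the 12 largest differences each way, up to 3 called genes of each list, up to 6 genes over 4-fold at both days with the smallest differences, and genes with a larger saline change. Others were chosen after their values were seen. The members and the gene lists were chosen with earlier results of these data known. Alternatives changed the probeset, normalization, filter, variance model, groups and mice. Promoters are the first RefSeq entry of each gene.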

Additional observations from a re-analysis of the deposited data

Results flagged for a closer look

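The response to bleomycin differed between the 2 days, by a test of the difference itself, in 197 genes with a larger and 61 with a smaller response at day 7. In 13 of these the bleomycin and saline groups differed in opposite directions at the 2 days. The differences were 1.32 in Nnat, 1.30 in Ivl, 1.17 in Dab1, 1.14 in Rgn, 1.11 in Cthrc1 and 1.08 in Spink4. They were -1.65 in Ifitm6, -1.52 in Il1f9, -1.42 in Trem3, -1.38 in AW011738, -1.33 in Gzmb, -1.32 in Hspb1 and -1.10 in Klre1.

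Single mice stood apart from the other 7 of their group in 27 of 136 groups looked at (34 genes, 19.9%), by the gap to the nearest mouse over the range of the group (Dixon's criterion at 95%). Chance gives about 1 in 20 groups, and the genes share mice.

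Bleomycin mouse 1 of day 7 was lowest in Sprr1a (10.71), Thbs4 (7.97), Chl1 (8.63), Cldn4 (6.89), Vcan (8.71) and Ddias (7.81), and highest in Igfbp3 (10.21) and Alas2 (8.01). In each of these genes the value lay on the saline side of its group. Bleomycin mouse 6 of day 2 was highest in Thbs4 (7.29). Saline mouse 3 of day 7 was highest in Chodl (7.43), Thbs4 (8.37) and Cxcl9 (8.05), saline mouse 5 of day 7 in Cxcl2 (8.62), and saline mouse 7 of day 7 was lowest in Ly6i (7.59).

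Of the saline mice of day 2, mouse 7 was highest in Chodl (5.68), Dmp1 (6.65), Thbs4 (7.46), Chl1 (6.42) and Cxcl9 (8.26) and lowest in Gpnmb (5.64). Mouse 8 was highest in Cxcl2 (8.06) and Cxcl3 (6.24) and lowest in Oas3 (7.19). Mouse 2 was highest in Sprr1a (9.11), mouse 6 in Pkhd1 (4.93) and mouse 1 in Col24a1 (5.63), and mouse 5 was lowest in Alas2 (7.44).

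Among the 4503 probesets without a gene name, which entered no comparison above, 17 were called with a larger and 10 with a smaller response at day 7 when tested in the same way.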

How the results depend on the processing

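None of the 66 called genes named by the rules given above reversed its direction in any alternative run, and 38 of them were called in every one. Called genes named by later choice, such as S100a9 and Psrc1, were not among the 66. Some named genes without a call did change sign. Without bleomycin mice 5 and 8 of day 2, Ccl12 was at -0.56, Vcan at -0.18 and Ddias at -0.19. Without the 30% dimmest genes 120 genes were called larger, all 172 of the 258 still tested being called again. Without bleomycin mice 5 and 8 of day 2, chosen after seeing the data, 293 genes were called at day 2. Without the 3 other mice that stood apart, also chosen after seeing the data, 234 genes were called larger and 78 smaller. The saline groups differed in 1 gene, in 4 with array weights and in 1 to 3 with 1 mouse left out. With 1 mouse left out, 167 to 221 genes were called larger and 56 to 75 smaller. Of the 66 genes, 14 lost their call in that way. Cxcl1 and Ncr1 lost it without any 1 of 16 mice, Calcr of 13, Ereg and Pdgfc of 9, Nr4a1 of 8 and Itih4 of 7. Alas2 and Rsad2 lost it without any 1 of 5 mice, Ctsk of 4, P4ha3 and Wnt5a of 2, and Ccl8 and Ppp2r2c without 1 mouse.

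With the highest-mean probeset of each gene 174 genes were called larger and 54 smaller, and with the mean of its probesets 151 and 57. C1qb was at 0.71 with the first and not called. Fitting the 4 groups alone gave 191 and 56, without Ccl8, Cxcl11, Nr4a1 and Rsad2. The replicate number as a replicate block gave 197 and 61 over all groups and 189 and 51 within a day, where Cxcl1, Cxcl11, Alas2, S100a8, Nr4a1, Rsad2 and Zbtb16 lost their calls. Between the bleomycin groups alone Zbtb16 was at 0.21, Cxcl3 at -0.61, Nr4a1 at -0.53, Ppp2r2c at -0.31 and Wnt5a at 0.59, none of them called, and Cxcl2 at -1.46. Bleomycin and saline mice of the same number and day correlated at -0.175 to 0.307, 8 of 16 pairs over 0.1, and 4 mice matched their own number best. The numbers were therefore not treated as pairs, though such weak correlations cannot exclude shared handling. The difference between saline groups cannot be estimated within a day. No leaving out was run for days 14 and 1. Precision is limited by 8 mice a group, 2 of which at day 2 hardly responded.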

Other observations

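Some smooth muscle and endoplasmic reticulum genes had smaller responses at day 7 by adjusted p. Of 13 contractile genes, among them those of the smooth muscle cytoskeleton, 0 were called. By adjusted p 5 had a smaller response at day 7, with a median difference of -0.37. Between days 14 and 1 only 2 of the 13 had a difference of the same sign, and the median was 0.38, the opposite direction. Their median response was -0.46 at day 1, 0.23 at day 2 and -0.11 at day 7. Cnn1, the smooth muscle calponin, had a difference of -0.99 (-1.08 and called without bleomycin mice 5 and 8 of day 2) and Myh11, the smooth muscle myosin, one of -0.72. Of 14 genes of the unfolded protein response the 5 that passed by adjusted p were Hspa5, Dnajc3, Hsp90b1, Creld2 and Hyou1, chaperones and cofactors of the endoplasmic reticulum, with differences of -0.61 to -0.26.

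Tissue carried along with the lung varied between mice. The 9 cardiac muscle genes had a median difference of -0.47 with a median change of -0.45 between saline groups, 1 of the 9 passing the adjusted p and 0 being called. The 6 fat cell and the 6 cartilage genes gave 0 calls. Saline mouse 3 of day 7 had 11.94 of the atrial peptide Nppa, 10.70 of Cidea of brown fat and 10.06 of the cartilage proteoglycan Acan, against at most 11.83, 7.70 and 5.83 in the other saline mice of that day. The part of these tissues in the results was not tested.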
